A study of Mus musculus with 2 samples.

Results

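Fos, Fosb, Jun, Junb, Jund, Egr1, Atf3, Klf2, Klf4 and Klf6 are early response transcription factor genes, and they make up 10 of the 32285 genes counted in each library. They were selected by symbol, and all 10 symbols were found in both libraries. The study profiled wild-type mouse brain cells in 2 libraries of a single group, with no treatment and no control group. EdU, a nucleoside that marks cells copying their DNA, was given at embryonic day 12, and the pallium, which holds the cerebral cortex, was collected and pooled at postnatal day 3. The cells were dissociated with enzymes, reacted for EdU, sorted as negative for the dead cell dye PI and within the brightest 10% for EdU, and captured in droplets with the 10x 3' chemistry, which counts molecules by unique molecular identifiers (UMIs). Comparisons were made between cell groups inside the same libraries, and each group was set by marker genes outside the 10.

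Early response genes are transcribed within minutes of a stimulus from factors already present in the cell, before new protein is made. Fos and Jun proteins pair through leucine zippers to form AP-1, which binds DNA of target genes, and Atf3 joins this family as a partner. Egr1 and the Klf proteins bind GC-rich DNA through zinc fingers. In brain these genes respond to neuronal activity, growth factors and injury, and they also respond to warm enzymatic dissociation of tissue.

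The promoters of 4 of the genes are printed as examples of the 6 windows that hold the core of the site for CREB and ATF factors, and those of Atf3 and Klf2 are not shown. They are RefSeq sequences of GRCm38.p6, each from 250 bases before to 50 bases after the start of transcription. Capitals mark TGACG on either strand (CGTCA on the printed strand is its reverse complement) and TATAAA on the printed strand.
Fos, chr12:85473640-85473939, plus strand: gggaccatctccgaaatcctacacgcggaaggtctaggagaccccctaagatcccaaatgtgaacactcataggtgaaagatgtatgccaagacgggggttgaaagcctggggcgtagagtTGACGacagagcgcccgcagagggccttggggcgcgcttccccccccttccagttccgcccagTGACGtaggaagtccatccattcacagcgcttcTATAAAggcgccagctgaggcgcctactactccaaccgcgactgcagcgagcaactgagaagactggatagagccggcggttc
Fosb, chr7:19309996-19310295, minus strand: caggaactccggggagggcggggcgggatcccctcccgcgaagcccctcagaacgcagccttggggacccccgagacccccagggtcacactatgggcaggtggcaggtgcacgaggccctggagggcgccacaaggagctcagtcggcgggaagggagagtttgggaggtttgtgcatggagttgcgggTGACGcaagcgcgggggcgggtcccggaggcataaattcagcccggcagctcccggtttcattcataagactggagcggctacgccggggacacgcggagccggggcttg
Junb, chr8:84978699-84978998, minus strand: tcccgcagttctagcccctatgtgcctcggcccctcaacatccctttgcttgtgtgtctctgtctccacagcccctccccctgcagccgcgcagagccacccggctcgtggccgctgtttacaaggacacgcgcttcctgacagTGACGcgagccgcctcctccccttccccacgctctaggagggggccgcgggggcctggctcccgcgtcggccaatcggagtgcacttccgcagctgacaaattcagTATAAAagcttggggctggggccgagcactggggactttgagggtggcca
Klf4, chr4:55532426-55532725, minus strand: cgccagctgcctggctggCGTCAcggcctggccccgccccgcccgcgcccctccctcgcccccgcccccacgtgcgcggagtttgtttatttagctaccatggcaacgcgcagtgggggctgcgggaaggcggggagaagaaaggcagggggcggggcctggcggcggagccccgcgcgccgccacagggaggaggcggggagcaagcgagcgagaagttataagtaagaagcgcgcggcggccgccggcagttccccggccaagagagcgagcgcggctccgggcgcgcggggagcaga
Windows were used for 9 of the 10 genes, all but Egr1. TGACG was present in 6 of the 9 (Fos, Fosb, Junb, Atf3, Klf2 and Klf4), against 20.8% of 32851 windows of this length. TATAAA, the core of the TATA box, was present in Fos and Junb and in 8.32% of all windows on the printed strand. The match in Fos begins 33 bases before the RefSeq start. That in Junb begins at the RefSeq start itself, which lies 30 bases upstream of the GENCODE start. GGGCGG, a GC box, was in 7 of the 9 and in 35.7% of all windows, either strand counted. TGACGTCA, which contains TGACG (1.79% of all windows), TGANTCA (7.81%) and the CArG box (1.63%) were in 0 of the 9, both strands searched. Such a match is a description of letters in this window and not a measured site. A motif absent here may lie outside the window, and Egr1 was not searched. The RefSeq start of Jund lies 1210 bases upstream of the GENCODE gene and that of Atf3 34706 bases inside it, so the windows of both belong to another start than the first base of the gene given below.

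In mm10 (GRCm38), Fos (ENSMUSG00000021250) lies on chromosome 12 from 85473890 to 85477273, Fosb (ENSMUSG00000003545) on chromosome 7 from 19302696 to 19310051 and Jun (ENSMUSG00000052684) on chromosome 4 from 95049034 to 95052222. Junb (ENSMUSG00000052837) and Jund (ENSMUSG00000071076) lie on chromosome 8, from 84974484 to 84978718 and from 70698949 to 70700616. Atf3 (ENSMUSG00000026628) spans chromosome 1 from 191170296 to 191218039. Klf2 (ENSMUSG00000055148) is on chromosome 8 from 72319033 to 72321656, Klf4 (ENSMUSG00000003032) on chromosome 4 from 55527143 to 55532466 and Klf6 (ENSMUSG00000000078) on chromosome 13 from 5861482 to 5870394. All are protein-coding. Exons of Jun, Junb and Jund overlap exons of Junos, Prdx2 and Gm11175 on the other strand. Use of strand in counting is not given in the sources at hand, so the counts of these 3 genes are uncertain to that extent.

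The 2 libraries held 13858 and 14513 barcodes and 97091962 and 108903409 UMIs, in the order replicate 1 and replicate 2, which is kept for all pairs of values. Barcodes with at least 500 genes and at most 10% mitochondrial UMIs were kept, which left 11228 and 10965 with medians of 7542.5 and 8523 UMIs. The libraries shared 40 of the kept barcode sequences. The labels leave unsaid if each library had its own pool of animals. P-values here thus rest on how far differences between groups varied between these 2 libraries alone. A shift shared by all groups of a library is fitted apart, except where the library was left out of the model. The spread that remains may be a technical one.

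Cells with at least 2 UMIs of a marker gene formed 6 groups. They were astroglia (Aqp4, 1555 and 1539 cells), oligodendrocyte precursor cells or OPCs (Pdgfra, 3806 and 3938), glutamatergic neurons (Neurod2 plus Neurod6, 1050 and 1068), interneurons of the medial ganglionic eminence or MGE (Sst, 22 and 21), interneurons of the caudal ganglionic eminence or CGE (Adarb2, 243 and 259) and microglia (C1qa, 132 and 146). Both interneuron groups also needed a UMI of Gad1 or Gad2. Barcodes that met several rules (557 and 645) were left out, and Scrublet marked 64.8% and 53.3% of these as doublets. Median depth ran from 2722 and 3952 UMIs in MGE interneurons to 11702.5 and 14035.5 in microglia. Each group's own marker list had its highest sum in that group, but single markers were scarce. Slc17a7, a glutamate transporter of mature neurons, was at 3.62 and 3.89 CPM (the gene's UMIs in a group, scaled to the same total of UMIs for every group) in the glutamatergic group. Vip was at 2.32 and 0.59 CPM in the CGE group, which was led by Sp8 at 188.5 and 249 CPM, a gene also made by olfactory bulb neuroblasts, and 18.5% and 25.5% of these cells had 2 or more UMIs of division markers. In the microglial group the 10 microglial markers were all seen, but so were all 6 markers of border macrophages, at a summed 2766 and 2438 CPM against at most 11.04 CPM in the other groups. Pf4 alone reached 1342 and 995 CPM there, so this group is best read as C1qa-positive cells, both kinds included.

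CPM from 3' counts is not scaled by gene length, so levels are compared between groups for 1 gene and not between genes. The same cells gave the values of all 10 genes, and cells are not replicates. Of the 10, 5 had their highest mean level in astroglia, 3 in microglia, 1 in MGE interneurons and 1 in glutamatergic neurons. CGE interneurons had the lowest mean level for 7.

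**Figure D1:**
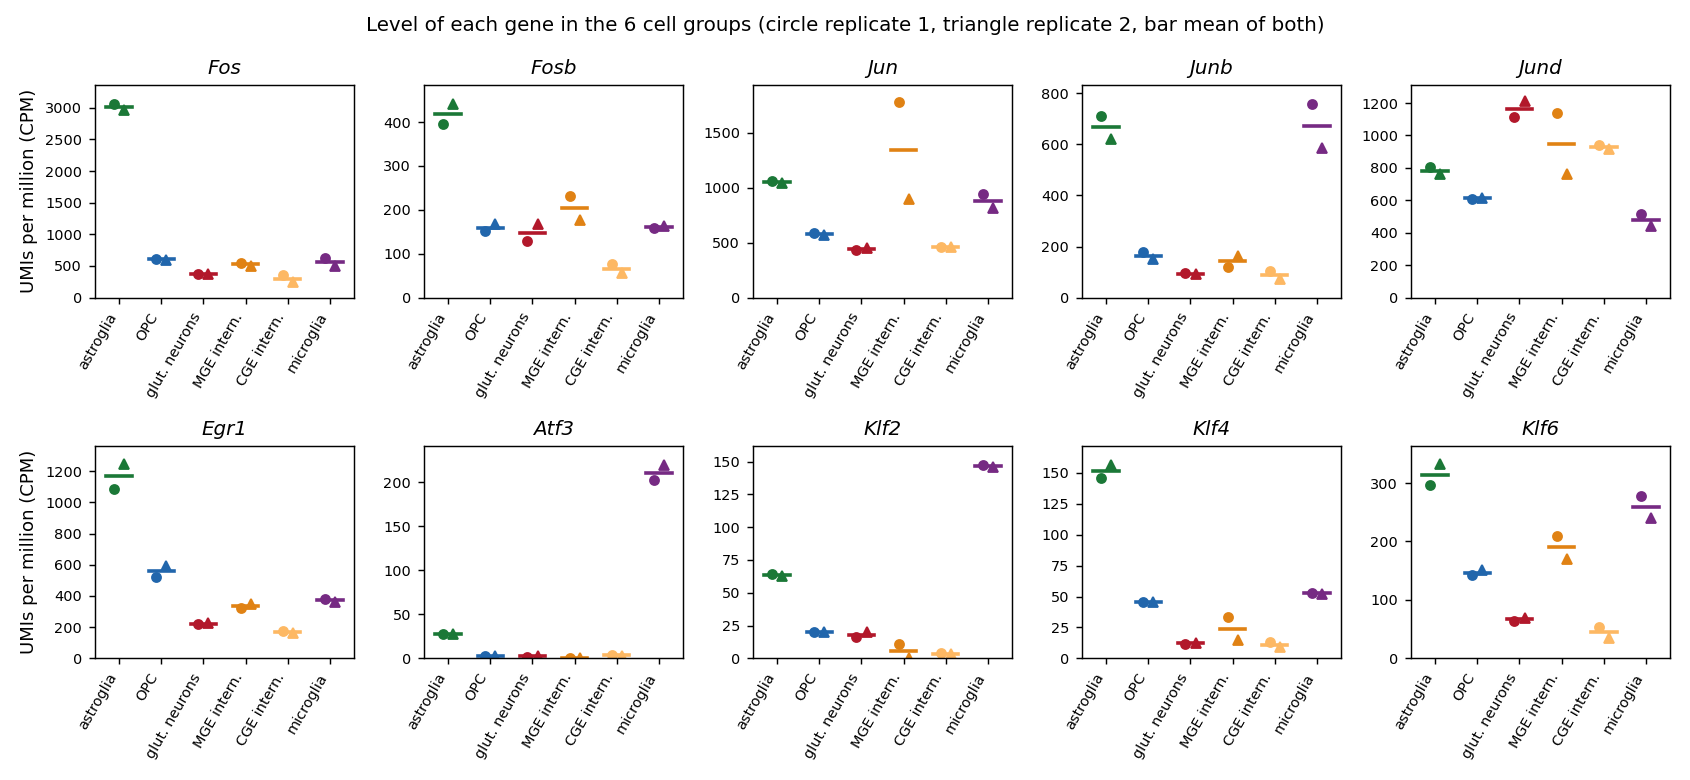
Level of each gene (vertical axis, CPM, linear and from 0) in the 6 cell groups (horizontal axis), with a circle for replicate 1, a triangle for replicate 2 and a bar for their mean. Fos stands at 3060 and 2969 CPM in astroglia and under 622 CPM in each other group, while Atf3 and Klf2 stand highest in microglia and Jund in glutamatergic neurons.

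Fos, the founding partner of Jun in AP-1, was at 3060 and 2969 CPM in astroglia. Its level was 608.5 and 597 CPM in OPCs, 621 and 497 in microglia, 552 and 495 in MGE interneurons, 378.2 and 378.3 in glutamatergic neurons and 353 and 243 in CGE interneurons. Astroglia lay apart from all other groups in both libraries, whereas OPCs, microglia and MGE interneurons overlapped. In replicate 2 of the MGE interneurons, 38 of the 67 Fos UMIs came from 1 cell, which Scrublet marked as a doublet. Without that cell the level there was 259.8 CPM, and MGE interneurons overlapped microglia through replicate 1 alone. Fosb, a close relative of Fos whose splice form deltaFosB is long-lived, was at 396 and 442 CPM in astroglia, 232 and 177 in MGE interneurons, 158 and 162 in microglia, 151 and 169 in OPCs and 128 and 167 in glutamatergic neurons. CGE interneurons had the least Fosb, at 75.7 and 56.7 CPM. The microglial, OPC and neuronal values of Fosb overlapped, and those of astroglia and of CGE interneurons stood apart at either end.

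Jun, the main activating partner in AP-1, was at 1777 and 902 CPM in MGE interneurons, 1062 and 1045 in astroglia, 941 and 811 in microglia, 588 and 569 in OPCs, 462 and 458 in CGE interneurons and 438 and 455 in glutamatergic neurons. The high MGE value came from replicate 1 (161 UMIs in 22 cells, exact Poisson 95% interval 1513 to 2074 CPM), and that of replicate 2 (122 UMIs in 21 cells, 749 to 1077 CPM) reached the astroglial level within its interval. These intervals cover counting error only, as do all those below. Junb, a Jun protein that activates weakly and can oppose Jun, was at 712 and 622 CPM in astroglia and 759 and 584.5 in microglia, 2 groups that overlapped. It was at 177 and 152 CPM in OPCs and 121 and 163 in MGE interneurons. Glutamatergic neurons had 98.0 and 90.4 CPM of Junb, and CGE interneurons 104 and 73.8. In replicate 2 of the MGE interneurons, 16 of the 22 Junb UMIs came from the marked doublet that also held most Fos UMIs. Without that cell Junb stood at 53.7 CPM there, below the glutamatergic and CGE values of replicate 2.

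Jund, the Jun gene that is made in most resting cells, had another order. It was highest in glutamatergic neurons, at 1111 and 1211 CPM, then 1137 and 761 in MGE interneurons, 942 and 914 in CGE interneurons, 805 and 761 in astroglia, 611 and 616 in OPCs and 516 and 442.5 in microglia. The 3 neuronal groups had the highest means, but MGE interneurons overlapped astroglia as well as both other neuronal groups. The highest group mean was 2.42 times the lowest, the narrowest range of the 10 genes. Egr1, an activity-dependent zinc finger factor, was at 1089 and 1245 CPM in astroglia, 524 and 593 in OPCs, 379 and 364.5 in microglia, 320 and 347 in MGE interneurons, 221 and 224 in glutamatergic neurons and 175 and 164 in CGE interneurons. No 2 neighbouring groups in this order overlapped for Egr1 with all cells included. In replicate 2 of the MGE interneurons, 31 of the 47 Egr1 UMIs came from the marked doublet that also held most Fos UMIs. Without that cell Egr1 stood at 143 CPM there, below the glutamatergic and CGE values of replicate 2.

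Atf3, a stress-induced factor that often represses its targets, was at 202.5 and 219 CPM in microglia and 27.8 and 27.4 CPM in astroglia. In OPCs (2.40 and 2.56 CPM), glutamatergic neurons (1.74 and 2.63) and CGE interneurons (3.86 and 2.95) it was scarce. MGE interneurons had 0 UMIs of Atf3, which allows up to 33.1 and 22.2 CPM (3 counts). Klf2, known for its role in endothelium and quiescent immune cells, followed a similar order, with 147 and 146 CPM in microglia, 64.6 and 62.4 in astroglia, 20.2 and 20.3 in OPCs, 16.5 and 19.7 in glutamatergic neurons, 11.04 and 0 in MGE interneurons (1 UMI in both libraries together) and 3.86 and 2.95 in CGE interneurons. Cells outside the 6 groups that had at least 3 endothelial markers held more Klf2, at 646 and 701 CPM in 15 and 23 cells.

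Klf4, a factor of stem cells and of glial injury responses, was at 146 and 156 CPM in astroglia, 53.1 and 52.1 in microglia, 45.2 and 45.4 in OPCs, 33.1 and 14.8 in MGE interneurons (3 and 2 UMIs), 11.6 and 12.7 in glutamatergic neurons and 13.1 and 8.86 in CGE interneurons. Klf6, a broadly made injury-responsive factor, was at 296 and 332 CPM in astroglia, 277 and 240 in microglia, 210 and 170 in MGE interneurons, 142 and 151 in OPCs, 64.7 and 68.2 in glutamatergic neurons and 54.1 and 34.8 in CGE interneurons. Astroglia were thus first and glutamatergic and CGE cells last for both genes, and the last 2 groups overlapped for Klf4.

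All 10 genes were higher in astroglia than in OPCs in edgeR's quasi-likelihood test on UMIs summed per library and group (Benjamini-Hochberg adjusted p below 0.05), against 33.6% of the 14183 genes counted (68.0% were called in either direction). Their median log2 fold change was 1.69, and that of all genes was -0.01. Fos (log2 fold change 2.496 ± 0.062, SE, adjusted p = 6.2e-33 in edgeR) and Junb (2.19 ± 0.06) differed by over 4-fold. Atf3 was fitted at 3.64 ± 0.11, but its OPC level was close to that of astroglial RNA seen in OPCs, as given below, so the size of this fold has no measured lower level. Klf4 (1.91 ± 0.04), Klf2 (1.82 ± 0.07) and Fosb (1.57 ± 0.06) lay between 2-fold and 4-fold. Klf6 (1.27 ± 0.04), Egr1 (1.24 ± 0.05) and Jun (1.04 ± 0.06) were a little over 2-fold. Jund had the smallest difference, 0.53 ± 0.06 (adjusted p = 6.33e-11 in edgeR). Each gene had the same direction in both libraries.

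Against OPCs, glutamatergic neurons had 1 member higher, 6 lower and 3 not called, where 32.7% of all genes were higher, 33.2% lower and 65.9% called in either direction. The median over the members was -0.44, and that of all genes was 0.0012. Jund was higher (1.00 ± 0.06). Klf4 (-1.82 ± 0.10), Egr1 (-1.25 ± 0.06), Klf6 (-1.06 ± 0.06), Junb (-0.72 ± 0.07), Fos (-0.59 ± 0.06) and Jun (-0.29 ± 0.07) were lower. The call for Jun was lost in DESeq2 (adjusted p = 0.14) and without the library in the model (adjusted p = 0.0668 in edgeR). Fosb (-0.031 ± 0.068), Klf2 (-0.072 ± 0.11) and Atf3 (-0.082 ± 0.28) did not pass, and each had opposite signs in the libraries. Against astroglia, 9 members were lower in glutamatergic neurons and Jund was higher (0.48 ± 0.06), where 36.3% of all genes were lower, 35.3% higher and 71.6% called in either direction. The members' median was -2.41, beside -0.011 for all genes. The widest differences were those of Klf4 (-3.73 ± 0.08), Atf3 (-3.72 ± 0.18), Fos (-3.09 ± 0.07) and Junb (-2.91 ± 0.07), and the narrowest among the 9 lower genes was that of Jun (-1.33 ± 0.07). The neuronal levels of Klf4 and Atf3 were also close to those of astroglial RNA, so the sizes of their folds carry the same limit. These 3 comparisons share their groups, so they are not independent of each other.

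**Figure D2:**
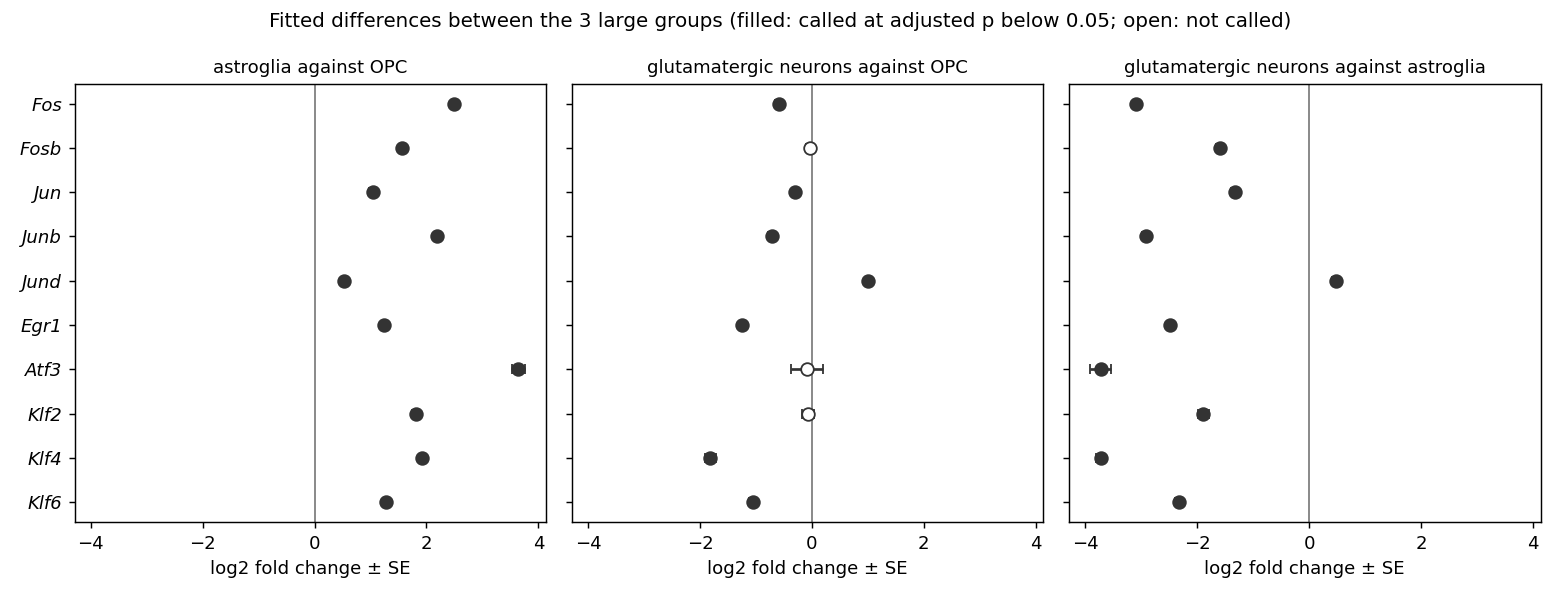
Fitted log2 fold change with its standard error (horizontal axis) for each gene (vertical axis) in the comparisons of astroglia, OPCs and glutamatergic neurons, with filled points for calls at an adjusted p below 0.05 and open points for the rest. All 10 points lie right of 0 for astroglia against OPCs, and Jund is the single point right of 0 for neurons against astroglia.

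Astroglial transcripts were also seen at low levels in the other groups. The 9 astroglial markers summed to 6752 and 7367 CPM in astroglia and to 471 and 423 CPM in glutamatergic neurons, with Gjb6 at 0 in the latter. The median marker stood in neurons at 6.68% and 5.41% of its astroglial level. The same shares of the astroglial Fos level come to 204 and 160.5 CPM, beside the 378.2 and 378.3 CPM seen in neurons. For Klf4 they come to 9.74 and 8.45 CPM beside 11.6 and 12.7, and for Atf3 to 1.86 and 1.48 CPM beside 1.74 and 2.63. Levels of Klf4 and Atf3 in glutamatergic neurons are therefore not read as expression. For Jund the shares come to 53.8 and 41.2 CPM beside 1111 and 1211. In OPCs the median share was 4.87% and 9.02%, which for Fos comes to 149 and 268 CPM beside 608.5 and 597, and for Atf3 to 1.35 and 2.47 CPM beside 2.40 and 2.56. In CGE interneurons the median share was 7.41% and 4.25%. For Klf2 that comes to 4.79 and 2.65 CPM beside 3.86 and 2.95, and for Klf4 to 10.8 and 6.64 CPM beside 13.1 and 8.86. For Fos in CGE interneurons it comes to 227 and 126 CPM beside 353 and 243. In MGE interneurons the median share was 2.32% and 7.60%. There it comes to 70.9 and 225.5 CPM for Fos beside 552 and 495, and to 25.2 and 94.6 CPM for Egr1 beside 320 and 347. Klf4 comes to 3.38 and 11.9 CPM beside 33.1 and 14.8. Without the marked doublet, Fos and Egr1 stood at 259.8 and 143 CPM in MGE replicate 2. Atf3 in OPCs and Klf2 and Klf4 in CGE interneurons are not read as expression either, and shares of CGE cells with Fos carry the same limit. No group lacks Fos, so the level of free Fos RNA was not measured directly, and its part in these levels was not tested. Mural cell markers summed to 87.5 and 97.9 CPM in astroglia and 9.88 and 15.5 CPM in OPCs, and cells outside the groups with such markers had 1542 and 1530 CPM of Fos, below the astroglial level.

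MGE interneurons, with 43 cells in all, had 4 members higher than CGE interneurons, 4 not called and 2 with too few UMIs for a test, where 3.14% of all genes were higher, 4.41% lower and 7.55% called in either direction. The limit on too few UMIs was applied to the members alone, and the shares of all genes include genes with few UMIs. Shares and member counts are thus not like for like here. Klf6 (1.88 ± 0.36, adjusted p = 0.000193 in edgeR), Fosb (1.38 ± 0.32), Jun (1.23 ± 0.15) and Egr1 (0.77 ± 0.21) were higher. By library the log2 difference of Jun was 1.70 and 0.77. Over the 8 members tested the median was 0.79, beside -0.21 for all genes, and another scaling (RLE) moved the latter to -0.094. Of all calls 41.6% were higher, and 51.3% with RLE and 63.5% in DESeq2. Fos was at 0.60 ± 0.20 (adjusted p = 0.0511 in edgeR, 0.00515 in DESeq2). The MGE cells had a median of 5.47% and 5.39% mitochondrial UMIs, against 2.78% and 2.99% in the CGE cells. With cells above 5% left out, Jun (0.98), Fosb (1.73), Klf6 (1.55) and Egr1 (0.95) were again higher. Since the MGE medians lie above 5%, this left out a large part of the 43 MGE cells, and doublets were not removed. In replicate 2, 31 of the 47 Egr1 UMIs of the MGE interneurons and 10 of the 23 Klf6 UMIs came from the same marked doublet that held most Fos UMIs. Without that cell Egr1 stood at 143 CPM there, below the 164 CPM of CGE interneurons, and Klf6 at 116 CPM, above their 34.8 CPM. The call for Egr1 was lost without doublets (0.46, adjusted p = 0.448), and those for Fosb (0.63, adjusted p = 0.254) and Klf6 (0.41, adjusted p = 0.512) were lost in edgeR when 1 marker UMI set the groups.

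Interneurons, as the mean of both groups, had 1 member higher than glutamatergic neurons, 2 lower, 5 not called and 2 with too few UMIs, where 3.30% of all genes were higher, 8.05% lower and 11.4% called in either direction. Here too the shares of all genes include genes with few UMIs, unlike the members tested. Of all calls 29.1% were higher, and 46.8% with RLE and 59.1% in DESeq2. The median was 0.084 over the members tested and -0.26 over all genes, the latter moving to -0.14 with RLE. Jun was higher (0.68 ± 0.09), and Jund (-0.43 ± 0.08) and Fosb (-0.49 ± 0.15) were lower. The higher Jun rested on the 43 MGE cells. In a fit without them, chosen after the data had been seen, CGE interneurons alone stood at 0.13 ± 0.07 for Jun (adjusted p = 0.188 in edgeR). In that fit Klf2 (-2.36 ± 0.36, with a CGE level not read as expression), Fosb (-1.11 ± 0.13), Klf6 (-0.54 ± 0.16), Egr1 (-0.32 ± 0.08), Fos (-0.29 ± 0.09) and Jund (-0.24 ± 0.06) were lower in CGE interneurons than in glutamatergic neurons. That fit called 3549 genes in either direction, against 1610 with MGE cells, so the shares given above do not apply to it. By library, the log2 difference of Fosb with MGE cells included was -0.036 and -0.82.

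In microglia, 7 members were higher and Jund was lower than the mean of the other 5 groups, taken over log2 levels after edgeR's TMM scaling. Of all genes, those with few UMIs included, 33.1% were higher, 28.4% lower and 61.4% called in either direction. A single high group weighs less in such a mean than in a mean of CPM. Fos, Egr1 and Fosb had mean levels of 559, 372 and 160 CPM in microglia, against 3014, 1167 and 419 CPM in astroglia. The median was 0.70 over the 8 members tested and 0.036 over all genes, the latter moving to 0.16 with RLE. Junb had the largest difference of those tested (2.54 ± 0.07), then Klf6 (1.65 ± 0.08), Klf4 (1.42 ± 0.16), Jun (0.89 ± 0.06), Egr1 (0.51 ± 0.07), Fosb (0.49 ± 0.10) and Fos (0.35 ± 0.07). Jund was at -0.30 ± 0.06, a call lost without dividing cells (-0.14, adjusted p = 0.108) and in DESeq2 (-0.18, adjusted p = 0.113), both with the sign kept. Atf3 and Klf2 had too few UMIs in MGE interneurons for this fit. Against the mean of the other 4 groups, without MGE interneurons, Atf3 was higher by 6.04 ± 0.10 on the log2 scale (adjusted p = 7.15e-27 in edgeR). Klf2 was higher by 3.70 ± 0.11 (adjusted p = 1.58e-21 in edgeR). Levels of Atf3 in OPCs and glutamatergic neurons and of Klf2 in CGE interneurons were not read as expression. Those of Klf4 in glutamatergic neurons and CGE interneurons were not either. The sizes of these 3 microglial folds thus have no fully measured lower level.

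Most microglial cells carried border macrophage transcripts, since 118 of 132 and 133 of 146 had 2 or more UMIs of the fibroblast or border macrophage markers, and the fibroblast markers summed to 0.62 and 0.45 CPM there. The 14 and 13 cells with fewer such UMIs had 145.5 and 125.7 CPM of Atf3, against 208 and 227 in the others. Klf2 was at 84.3 and 269 CPM in these few cells and at 152.5 and 136 in the others. Junb was at 590 and 335 CPM against 774 and 605. With such cells left out of all groups, Junb (1.62) and Klf6 (1.00) were again called higher and Jund (-1.11) lower in microglia. Fosb turned to -1.04 (adjusted p = 0.0227 in edgeR), and Fos (-0.26), Jun (-0.039), Egr1 (-0.13) and Klf4 (-0.58) turned negative without a call.

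Single cells were compared after thinning each to 2000 UMIs, and shallower cells were left out (78 and 73 in astroglia, 238 and 205 in OPCs, 105 and 46 in glutamatergic neurons). At least 3 of the 10 genes were detected in 93.4% and 92.8% of astroglia, 70.7% and 73.2% of OPCs, 73.0% and 67.6% of microglia, 42.4% and 41.2% of glutamatergic neurons and 46.7% and 31.65% of CGE interneurons. MGE interneurons lay at 77.8% (14 of 18, exact Clopper-Pearson 95% interval 52.4% to 93.6%) and 63.2% (12 of 19, 38.4% to 83.7%). At least 5 genes were found in 65.5% and 63.9% of astroglia, 41.8% and 37.2% of microglia and 23.1% and 22.6% of OPCs. In glutamatergic neurons that share was 8.04% and 9.59%. The intervals of OPCs and microglia overlapped for 3 genes, while those of microglia lay higher for 5. Of microglia, 6.56% (8 of 122, 2.87% to 12.5%) and 6.90% (10 of 145, 3.36% to 12.3%) had 0 of the 10 genes, against 0.68% and 0.61% of astroglia.

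**Figure D3:**
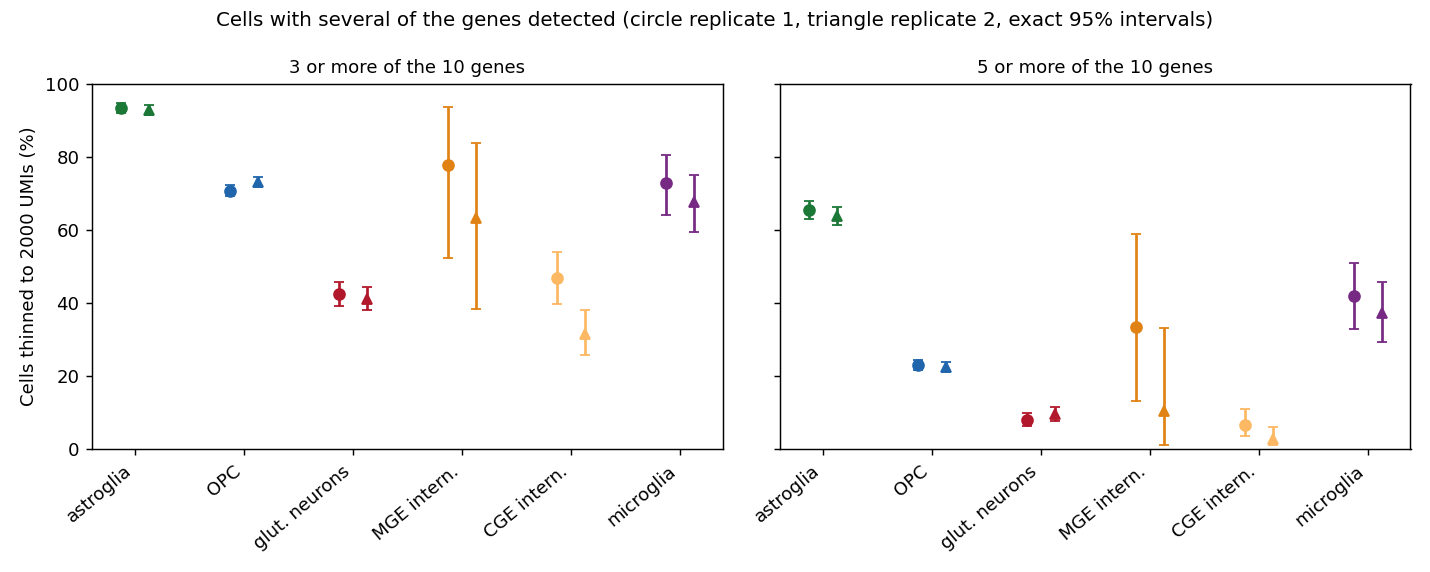
Share of cells thinned to 2000 UMIs (vertical axis, percent) with at least 3 (left) or at least 5 (right) of the 10 genes detected, by cell group and library, with exact 95% intervals for counting error. Astroglia lie at 93.4% and 92.8% on the left and at 65.5% and 63.9% on the right, above every other group there.

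Fos itself was detected in 94.65% (93.4% to 95.7%) and 94.5% of thinned astroglia, 63.9% and 63.4% of OPCs, 55.7% and 45.5% of microglia and 40.7% and 40.4% of glutamatergic neurons. Without thinning the shares for Fos were 97.8% and 98.4%, 90.6% and 91.9%, 85.6% and 85.6%, and 66.5% and 69.6%, in the same order. Jund was detected in 81.1% and 84.2% of glutamatergic neurons, above its 74.1% and 69.7% in astroglia. Atf3 was detected in 23.8% and 27.6% of microglia, 4.604% and 5.321% of astroglia, 0.28% and 0.46% of OPCs and 0.11% and 0.49% of glutamatergic neurons. The UMIs were spread unevenly over cells. The top 10% of cells held 36.2% and 32.9% of the summed UMIs of the 10 genes in microglia and 30.2% and 31.95% in glutamatergic neurons, against 22.2% and 23.2% in astroglia and 23.4% and 23.4% in OPCs.

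Whether the genes occurred in the same cells was described by the number of thinned cells with both genes, divided by the number that the product of their shares gives. In glutamatergic neurons this ratio for Fos was 1.41 and 1.67 with Fosb, 1.303 and 1.265 with Egr1, 1.19 and 1.29 with Jun, 1.18 and 1.33 with Junb and 1.71 and 1.97 with Klf2 (25 and 27 cells). With Jund it was 1.035 and 1.045. Averaged over the 7 partners with a product of at least 10 cells, the ratio was 1.29 and 1.42 in glutamatergic neurons. The mean over 8 partners was 1.20 and 1.44 in microglia, and in OPCs it was 1.10 and 1.11 over 8 and 9 partners. It was 1.03 and 1.03 in astroglia, where nearly every cell has Fos and the ratio is near 1 by construction. In every group the ratio cannot exceed 1 divided by the larger of the 2 shares. It thus has less room in OPCs, with Fos in 63.9% and 63.4% of cells, than in glutamatergic neurons (40.7% and 40.4%). The part of this limit in the differences between groups was not tested. These ratios come from cells of the same libraries and rise at lower depth, and they carry no test. Fosb and Fos overlapped most in replicate 2 of CGE interneurons, at 2.10 (21 cells).

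**Figure D4:**
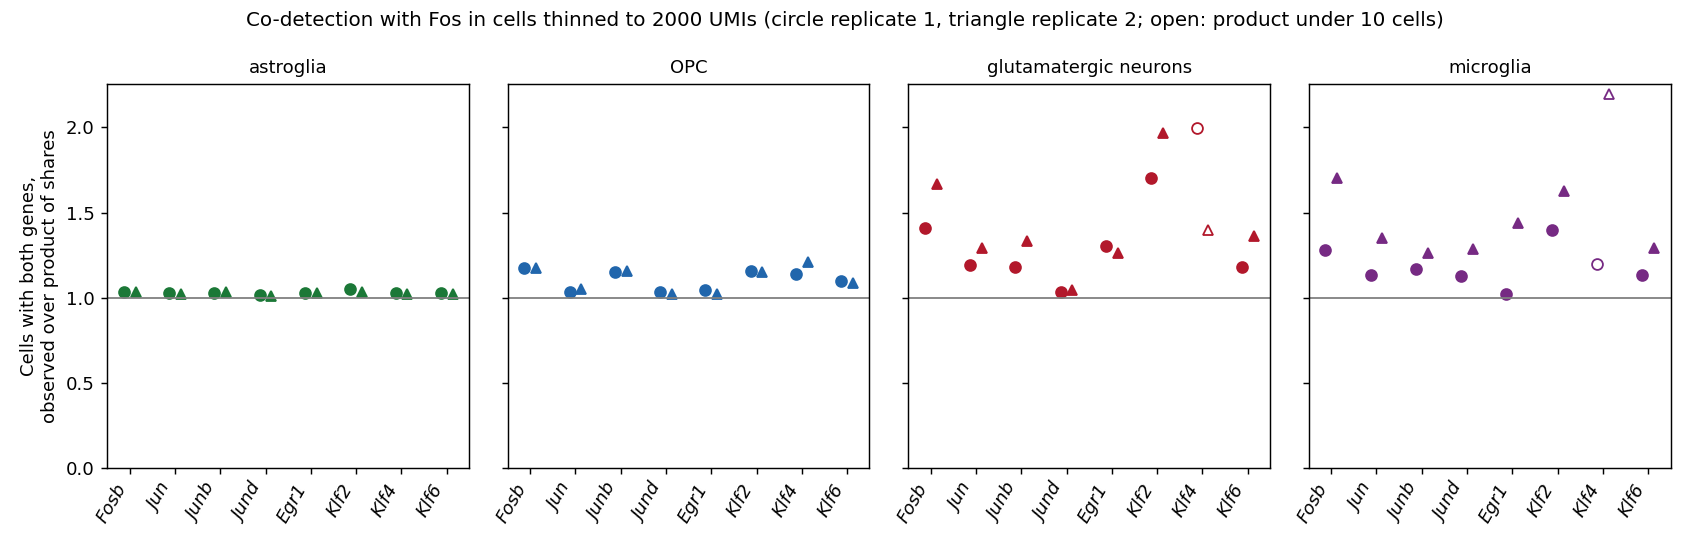
Observed number of cells with Fos and a partner gene, divided by the number from the product of their shares (vertical axis), for 8 partners in 4 cell groups, with a circle for replicate 1, a triangle for replicate 2 and open symbols where the product is under 10 cells. Atf3 is not drawn. Points lie near 1 in astroglia and for Jund in neurons, and at 1.41 and 1.67 for Fosb in neurons.

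Likeness to Fos was ranked by the phi coefficient of detection (a correlation of 2 yes-or-no calls) within astroglia, OPCs and glutamatergic neurons of each library, averaged over these 6 sets of cells for 8932 genes seen in at least 1% of each. Fosb (0.161), Egr1 (0.141), Jun (0.139) and Junb (0.125) took ranks 1 to 4, Klf6 and Klf2 ranks 9 and 10, Klf4 rank 17 and Jund rank 19. The median over all genes was 0.0004. Outside the 10, the closest were Btg2 (0.0973), Ier2 (0.0936), Mfge8 (0.0883), Id3 (0.0863), Mt3 (0.0744), Nr4a1 (0.0736), Ccn1 (0.0709), Socs3 (0.0707), Apoe (0.069) and Mt2 (0.0689). Btg2, Ier2, Nr4a1, Ccn1 and Socs3 are on the list of other early response genes, while Mfge8, Id3, Mt3 and Apoe are also abundant in astroglia. Astroglial markers stood close behind, with Slc4a4 (0.0663, rank 20), Aldoc (0.0644, rank 23), Slc1a2 (0.0622, rank 25) and Mlc1 (0.0551, rank 31), beside 0.0666 for Jund. The part of astroglial RNA in these ranks was not tested. The coefficients are low in size, and the sets share libraries.

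The members varied with the state of the cells within a group. In OPCs, Fosb was at 133 and 155.5 CPM in cells with under 2.5% mitochondrial UMIs and at 309 and 313 CPM in those with 5% to 10%. In glutamatergic neurons the same bins gave 94.2 and 124 against 290.0 and 282 CPM for Fosb, and 356 and 367 against 625 and 588.5 CPM for Jun. Fos in astroglia went the other way, with 3112 and 3050 CPM against 2310.0 and 2424. Barcodes above 10% mitochondrial UMIs, left out elsewhere, had 378 and 451 CPM of Fosb, against 194 and 219.9 in all kept barcodes. In astroglia, cells with 2 or more UMIs of division markers had 2336 and 2269 CPM of Fos against 3393 and 3318 in cells with 0, and 529 and 505 CPM of Junb against 810.4 and 680.4. The part of cell state in the differences between groups was not tested. With cells above 5% mitochondrial UMIs left out, the log2 fold change of astroglia against OPCs was 2.53 for Fos and 1.625 for Fosb, and without dividing cells 2.62 and 1.66.

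Other genes of the same families were read from lists. Of 17 other AP-1, ATF and Egr genes tested, 11 were higher and 2 lower in astroglia than in OPCs (median log2 fold change 0.68), against the 33.6% and 34.4% of all genes. Fosl2, another Fos protein, was at 2.21 ± 0.18 and Batf3 at 2.496 ± 0.243. In glutamatergic neurons against astroglia, 13 were lower and 2 higher (36.3% and 35.3% of all genes), led by Egr2 (-2.86 ± 0.16), Egr3 (-2.78 ± 0.13) and Egr4 (-2.71 ± 0.35), relatives of Egr1. In microglia 11 were higher and 1 lower than the mean of the other groups (33.1% and 28.4% of all genes). Egr2 was at 5.46 ± 0.28, Batf3 at 5.66 ± 0.49 and Atf2 at -1.09 ± 0.16. The limit on too few UMIs was applied to the members alone and not to any of these lists. Folds of listed genes that are scarce in a group therefore have no measured lower level.

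The 25 other early response genes found had 21 higher and 4 lower in astroglia than in OPCs (33.6% and 34.4% of all genes), with a median of 1.24. Zfp36, which destabilizes mRNAs, was at 3.89 ± 0.09, Socs3, an inhibitor of cytokine signalling, at 3.33 ± 0.04, Btg2, an antiproliferative factor, at 3.23 ± 0.04 and the kinase gene Sgk1 at -2.10 ± 0.09. Against astroglia, glutamatergic neurons had 21 lower and 3 higher (36.3% and 35.3% of all genes), among them Ccn1, a matrix protein (-4.04 ± 0.08), and Ier5 (2.498 ± 0.084). In microglia 21 were higher and 3 lower (33.1% and 28.4% of all genes), with Ier3 at 6.28 ± 0.08, Zfp36 at 5.18 ± 0.12 and Gadd45b at 4.94 ± 0.28. Ier3 was at a mean of 1193 CPM in microglia and 86.8 CPM in astroglia. In MGE against CGE interneurons 4 were lower (4.41% of all genes), Gadd45g (-2.78 ± 0.53) and Nfkbia (-1.87 ± 0.45) among them.

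The 10 neuronal activity genes were split. In glutamatergic neurons against astroglia, 5 were higher and 3 lower (35.3% and 36.3% of all genes). Inhba, an activin subunit (3.52 ± 0.26), Vgf (3.34 ± 0.30) and Scg2 (3.22 ± 0.29) were higher, and Arc, a synaptic early gene (-3.38 ± 0.21), Bdnf (-3.19 ± 0.25) and Nptx2 (-2.31 ± 0.15) were lower. Npas4, an activity-specific factor, was higher in glutamatergic neurons than in OPCs (2.37 ± 0.27), at a mean of 6.56 against 1.34 CPM. Among 11 other Klf genes, 6 were higher and 4 lower in astroglia than in OPCs (33.6% and 34.4% of all genes), with Klf15 at 3.97 ± 0.09, Klf9 at 1.64 ± 0.04 and Klf8 at -1.88 ± 0.35. In microglia 2 were higher, Klf10 at 1.865 ± 0.199 among them, and 4 lower (33.1% and 28.4% of all genes). Of 10 heat shock genes tested, 3 were higher and 4 lower in astroglia than in OPCs, which is near the 33.6% and 34.4% of all genes, with a median of -0.13. In microglia 6 were higher and 3 lower (33.1% and 28.4% of all genes). Hspa1a was at 5.49 ± 0.44 and a mean of 20.4 CPM, against at most 2.62 CPM in the other groups. The size of this fold carries the limit given above for scarce listed genes.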

How the data were processed

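The authors deposited a matrix of UMI counts for each library, not normalized, and Cell Ranger 6.0.2 stands as the software per the file headers. R 4.1.0, Seurat 4.1.0 and the build mm10 appear in the submitters' processing notes, with no role. An annotation release was not given in the sources used here. The 10 genes, the marker rules and all lists were chosen with earlier results of these data known.

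Counts were summed per library and group (12 sums), and tested with edgeR 4.0.16 in R 4.3.3 (TMM, filterByExpr, quasi-likelihood test, 6 contrasts in 1 model with the library as a block and 5 residual degrees of freedom, Benjamini-Hochberg over 14192 genes). The block pairs sums that come from the same sorted cells. Where a contrast uses the mean of several groups, it is the mean of their log2 levels. The 9 genes that set the groups were left out of counts of called genes. SE is the log2 fold change divided by the square root of F. DESeq2 1.42.0 and other settings served as alternatives. In data simulated for astroglia against OPCs, 97% of 100 genes changed 2-fold and 100% of 100 changed 4-fold were called (14192 genes). Of all calls, 4.37% were false. The simulation had a fixed spread for all genes, no shift between libraries, and changes in astroglia alone for few, well-counted genes. In the data 68.0% of genes were called in this contrast. These rates were not measured for so many changes, for low counts or for the other contrasts.

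Doublets were marked by Scrublet in scanpy 1.11.5 (expected rate 10%, 854 and 686 barcodes, 7.61% and 6.26%) and removed only in an alternative. Interneuron levels were also computed without the cell that held most UMIs of a gene, a description with no test that was added after seeing the data. Barcodes under 500 genes numbered 441 and 657, and those above 10% mitochondrial UMIs 2189 and 2891. Genes named outside the 10 are, per list and contrast, called genes with at least 2-fold change, at most 3 in each direction by size, plus the 10 with the highest mean phi with Fos. Of these, the text gives examples. Python 3.11.15, numpy 2.4.6, scipy 1.17.1, pandas 2.3.3 and matplotlib 3.10.9 were used. Summed marker CPM in the own group was 6752 and 7367 (astroglia), 5776 and 5748 (OPC), 1064 and 1055 (glutamatergic), 30480 and 22630 (MGE), 606 and 624 (CGE) and 21310 and 20480 (microglia). In the 6 groups, endothelial markers reached at most 62.1 CPM, mural markers 97.9, fibroblast markers 30.7, erythroid markers 1.30 and division markers 2047.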

Additional observations from a re-analysis of the deposited data

How the results depend on the processing

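Member values were recomputed under other marker limits, mitochondrial and gene filters, without doublets, dividing cells or cells with fibroblast or border macrophage UMIs, with RLE size factors, DESeq2, no low-count filter, no replicate block, and without each library. Of 748 such values for 54 member results, 694 were counted as the same. Another 15 lost a call, 8 gained one, 26 changed sign and 5 moved by more than the spread. The same means that direction and side of the threshold were kept, except with 1 library left out. Such values have no p-value, and 53 and 50 of them (without replicate 1 and replicate 2) lay within the spread. Sign was checked there for called genes alone, so some uncalled ones differ in sign, as Fosb in neurons against OPCs (-0.17 and 0.084). For astroglia against OPCs and glutamatergic neurons against astroglia, no member value changed sign or call in these settings. Counts of called genes have no value with 1 library left out, since no residual degrees of freedom remain. The cause of a change was not tested unless stated.

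With no replicate block, called genes numbered 8069 in place of 9644 (astroglia against OPCs), 8174 in place of 9349, 9276 in place of 10161, 1028 in place of 1071, 1334 in place of 1610 and 8645 in place of 8715, in the order of the report. For MGE against CGE interneurons 1071 genes were called, 657 with 1 marker UMI and 677 at up to 5% mitochondrial UMIs. Interneurons against glutamatergic neurons called 1610 genes and 3549 without MGE interneurons, a setting chosen after seeing the data. Microglia gave 8715 calls and 3174 without cells with fibroblast or border macrophage UMIs, which leaves 14 and 13 microglia.

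With 1 marker UMI, signs changed for Atf3 (0.54) and Klf2 (0.18) in neurons against OPCs, Fos (-0.12) and Junb (-0.20) in MGE against CGE interneurons, and Junb (-0.56), Klf4 (-0.66) and Klf6 (-0.16) in interneurons against neurons. With 3 marker UMIs they changed for Junb in both (-0.28 and -0.12), and without doublets for Junb in both (-0.11 and -0.16). In interneurons against neurons they changed without dividing cells for Fos (0.17) and Egr1 (0.14), with RLE for Fos (0.068) and Egr1 (0.11), in DESeq2 for Fos (0.072) and Egr1 (0.11), at up to 5% mitochondrial UMIs for Egr1 (0.046), and without MGE interneurons for Junb (-0.021), Klf4 (-0.10) and Klf6 (-0.54). In microglia without fibroblast or border macrophage UMIs they changed for Fos (-0.26), Fosb (-1.04), Jun (-0.039), Egr1 (-0.13) and Klf4 (-0.58).

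As means of both libraries, the share of cells with 3 or more members was, at 1000 and 4000 UMIs, 77.3% and 98.1% in astroglia, 37.3% and 93.5% in OPCs, 21.0% and 65.0% in glutamatergic neurons, 39.4% and 83.8% in MGE interneurons, 16.7% and 64.9% in CGE interneurons and 48.4% and 87.5% in microglia. With 1 marker UMI it was 90.5% in astroglia, 45.1% in glutamatergic neurons and 54.2% in MGE interneurons, and with 3 marker UMIs 93.8% in astroglia. At up to 5% mitochondrial UMIs it was 93.8% in astroglia, 40.0% in glutamatergic neurons and 52.1% in MGE interneurons, and without doublets 40.8% in glutamatergic neurons. Mean co-detection with Fos over 6 partners at 1000 and 4000 UMIs was 1.052 and 1.012 in astroglia, 1.13 and 1.04 in OPCs and 1.60 and 1.17 in glutamatergic neurons. In astroglia it was 1.04 with 1 marker UMI, 1.02 with 3, 1.02 at up to 5% mitochondrial UMIs and 1.03 without doublets, and in OPCs 1.10 and 1.09 with 1 marker UMI and at up to 5%.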
